A study of Mus musculus with 12 samples.

Results

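Chemokine ligands were examined in alveolar macrophages that lacked or carried the immunoproteasome subunit Lmp7. The members are 10 genes, the CC chemokines Ccl17, Ccl22, Ccl24, Ccl3, Ccl4, Ccl6 and Ccl9 and the CXC chemokines Cxcl1, Cxcl2 and Cxcl10, chosen by name among the 16593 genes that the platform annotation names. They were chosen with earlier results of these data known. Every probe of the non-normalized table with one of these symbols was taken, which gave 11 of 25697 probes, 2 of them for Ccl4 and 1 for each other gene. The cells were lavaged from the lungs of C57Bl/6J mice, 8 to 12 weeks old, either wild-type controls or Lmp7 k.o. animals. They were left unpolarized (M0) or treated with interleukin-4 (IL-4, 20 ng/ml, for up to 24 h), the cytokine of alternative or M2 polarization. This makes 4 groups of 3 arrays, wild-type M0, wild-type M2, knockout M0 and knockout M2. The labels describe neither the knockout allele nor whether animals were pooled, and since nothing says that the arrays of a group came from separate mice, p-values measure the spread between these arrays, which may be technical. The array columns name the group without a replicate number, so the letters a, b and c stand for its arrays in the order of their columns.

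Chemokines are small secreted proteins that bind receptors on leukocytes and direct where these cells move. Resident macrophages of the airspaces release them to call in neutrophils, monocytes, eosinophils and T cells. Alternatively activated macrophages are known for ligands of CCR4 and CCR3, which draw T helper type 2 cells and eosinophils, whereas ligands of CXCR2 and the interferon-induced ligand of CXCR3 are linked to classical inflammation.

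The share of detected probes (detection p under 0.05) ranged from 25.5% to 34.2% over the 12 arrays and was lowest on arrays a of knockout M2, knockout M0 and wild-type M0. Psmb8, which encodes Lmp7, was detected on all 6 wild-type arrays and on none of the 6 knockout arrays, with M0 knockout cells at least 3.43-fold lower (limma, adjusted p = 1.843e-05) and M2 knockout cells at least 3.32-fold lower (adjusted p = 3.127e-05). Psmb8 was thus tested through its wild-type arrays alone and had to differ. Of 12 alveolar macrophage markers 10 were detected on every array, among them Siglecf, Marco and Pparg, while Car4 was detected on none. All 7 dendritic cell markers, all 4 eosinophil markers, all 4 B cell markers, all 3 monocyte markers and all 4 fibroblast markers were undetected on every array. Of 8 neutrophil markers 6, of 7 T cell markers 5, of 7 epithelial markers 3, of 4 mast cell markers 3 and of 2 endothelial markers 1 were undetected on every array. The summed normalized intensity of the neutrophil list was 442 to 464 without and 347 to 374 with IL-4 on the wild-type arrays, against 503 to 610 without and 358 to 388 with it on the knockout arrays, and S100a8 was its only marker detected on all arrays. The epithelial sum was 1462 to 1734 without and 3089 to 3317 with IL-4 on the wild-type arrays, against 1285 to 1371 without and 2922 to 3486 with it on the knockout arrays, with Cdh1, itself on the M2 marker list, the only member detected on all 12 arrays. The alveolar macrophage sum was 14249 to 14554 without and 19038 to 20403 with IL-4 on the wild-type arrays. On the knockout arrays it was 13592 to 14331 without and 19065 to 19219 with it. In that list Chil3 and Krt79 passed as higher and Siglecf, Marco and Fabp5 as lower with IL-4 in both genotypes. Chil3, which is also on the M2 marker list, had means of 11.54 log2 without and 13.17 log2 with IL-4 in wild-type cells. In knockout cells its means were 11.70 and 13.20 log2. Between genotypes Marco was lower and Fabp5 higher in knockout cells in both states. All these sums thus moved with IL-4. They add linear intensities, so a single bright marker such as Chil3 or Cdh1 can move a sum. The part of these sums in the IL-4 responses below was not tested. In these bulk samples fewer cells making a chemokine and less of its RNA per cell cannot be told apart.

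Detection parted the chemokines into those always measured, those measured only with IL-4 or on some arrays, and those never measured. Ccl6 and Ccl9 were detected on all 12 arrays. Ccl4 was detected on 9 of 12 arrays, Ccl3 on 8, Ccl17 on 6, Ccl24 on 5 and Cxcl1 on 4. Ccl22, Cxcl2, Cxcl10 and the second Ccl4 probe were detected on none. By array, 2, 5 and 5 of the 11 probes were detected without and 7, 6 and 5 with IL-4 on the wild-type arrays, against 3, 3 and 3 without and 6, 5 and 6 with it on the knockout arrays. The probes of 7 genes passed the filter for testing (detection on at least 3 of 12 arrays), so Ccl22, Cxcl2 and Cxcl10 were not among the 6563 genes tested. Ccl17 passed through its M2 arrays alone and Cxcl1 through its wild-type arrays alone.

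**Figure D1:**
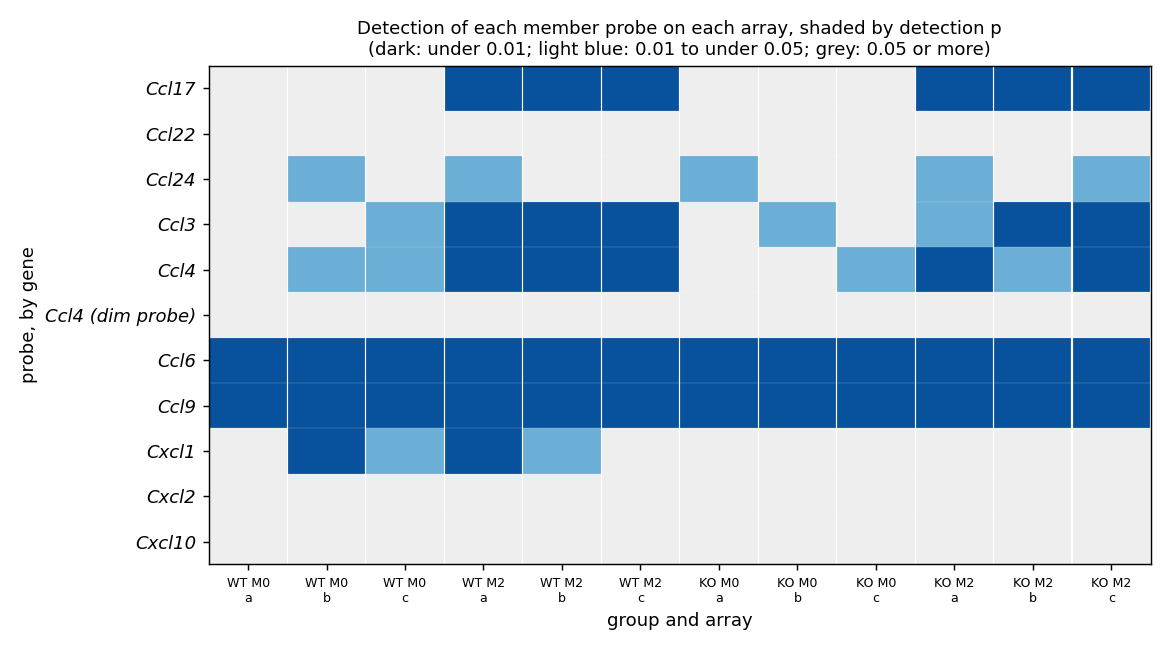
Detection of the 11 chemokine probes (rows) on each of the 12 arrays (columns, by group and array letter), with dark cells for detection p under 0.01, light blue for 0.01 to under 0.05 and grey for 0.05 or more. Ccl6 and Ccl9 are dark on all 12 arrays, Ccl17 on the 6 M2 arrays, and Ccl22, Cxcl2, Cxcl10 and the second Ccl4 probe are grey throughout.

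Ccl17 and Ccl22 are the ligands of CCR4, the receptor of T helper type 2 and regulatory T cells. Deposited intensities of the Ccl17 probe (accession NM_011332), from which a background had been subtracted, were -7, -3 and 28 in wild-type M0 and 17, -4 and 24 in knockout M0 cells. With IL-4 they were 790, 913 and 759 in wild-type and 1188, 1283 and 1201 in knockout cells. No M0 array detected Ccl17, every M2 array did, and all 3 knockout M2 arrays lay above all 3 wild-type M2 arrays. After normalization the M2 levels were 9.50 ± 0.0592 log2 (SD, n = 3) in wild-type and 10.28 ± 0.0731 log2 (SD, n = 3) in knockout cells. IL-4 raised Ccl17 at least 11.3-fold in wild-type (adjusted p = 2.095e-07) and at least 18.9-fold in knockout cells (adjusted p = 6.811e-08). These bounds set the M2 mean against the higher of the probe's own value and the lowest detected value on each M0 array. The knockout M2 level was 1.71-fold that of wild-type M2 cells (0.77 ± 0.191 log2, SE), but this difference missed the threshold (adjusted p = 0.0675). It passed without array c of wild-type M0 (adjusted p = 0.0411) or array b of knockout M0 (adjusted p = 0.04995), neither of which holds M2 cells. With a background offset of 50 in place of 16 it passed too (adjusted p = 0.00578).

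Ccl22 gave no such signal. Its only probe (NM_009137) read 59, 5 and 20 without and 27, 70 and 24 with IL-4 on the wild-type arrays, against 12, 17 and 15 without and 50, 13 and 29 with it on the knockout arrays, with a lowest detection p of 0.0526. The 4 groups overlapped, and none was well above background. The genes of both ligands lie on chromosome 8 in the RefSeq order with Cx3cl1, the ligand of CX3CR1, between them. Cx3cl1 was detected on 7 of 12 arrays, and its IL-4 responses of 0.33 ± 0.245 log2 in wild-type and 0.16 ± 0.245 log2 in knockout cells missed the threshold (adjusted p = 0.427 and 0.726).

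The promoters of Ccl17 and of its neighbour Ccl22 are shown together with those of Ccl3 and Ccl9, the other members past the threshold that have a promoter in the table, so that the letters upstream of genes that rose with IL-4 can be read beside a gene that was not detected. Sequences are RefSeq's of build GRCm38.p6, the 250 bases before the annotated start, 5′ to 3′ on the gene's strand. They lie at chr8:94810203-94810452 (plus strand) for Ccl17, chr8:94745434-94745683 (plus strand) for Ccl22, chr11:83649379-83649628 (minus strand) for Ccl3 and chr11:83578637-83578886 (minus strand) for Ccl9. Capitals mark matches to TTC and GAA with any 4 bases between them, the spacing preferred by STAT6, to TTCNNNGAA, with 3 bases between, the spacing of other STAT factors, and to the kappaB motif, each searched on both strands.
Ccl17: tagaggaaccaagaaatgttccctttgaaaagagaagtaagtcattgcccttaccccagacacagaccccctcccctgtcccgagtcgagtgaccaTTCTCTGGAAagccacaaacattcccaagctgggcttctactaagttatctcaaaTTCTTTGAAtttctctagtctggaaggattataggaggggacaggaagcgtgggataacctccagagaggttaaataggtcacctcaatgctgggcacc
Ccl22: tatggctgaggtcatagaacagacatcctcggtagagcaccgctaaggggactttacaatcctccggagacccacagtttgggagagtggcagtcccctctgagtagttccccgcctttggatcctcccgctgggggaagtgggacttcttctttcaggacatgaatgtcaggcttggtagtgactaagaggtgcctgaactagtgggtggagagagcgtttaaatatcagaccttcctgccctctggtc
Ccl3: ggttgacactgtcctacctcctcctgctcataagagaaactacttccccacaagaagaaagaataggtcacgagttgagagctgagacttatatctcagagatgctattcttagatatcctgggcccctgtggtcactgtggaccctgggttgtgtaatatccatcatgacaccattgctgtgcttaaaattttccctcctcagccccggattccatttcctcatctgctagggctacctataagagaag
Ccl9: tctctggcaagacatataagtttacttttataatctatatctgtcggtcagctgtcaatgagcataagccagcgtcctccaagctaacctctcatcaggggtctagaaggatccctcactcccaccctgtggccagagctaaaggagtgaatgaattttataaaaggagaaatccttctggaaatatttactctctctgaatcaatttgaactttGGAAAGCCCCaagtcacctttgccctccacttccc
Of the 8 members with a promoter in the table, Ccl17 alone held the 4-base spacing, from 154 to 145 bases before the start, a motif found in 5.85% of all 32851 promoters of this length. Ccl17 alone also held TTCNNNGAA, from 99 to 91 bases before the start, which 7.02% of all promoters hold. The kappaB motif, in 7.25% of all promoters, was in those of Ccl9, Cxcl1, Cxcl2 and Cxcl10. TTTC followed after any 2 bases by TTTC, a core of the interferon-stimulated response element that 2.98% of promoters hold, was in that of Cxcl10. Matches of the first, second and kappaB motifs did not overlap each other in the printed windows. They are descriptions of letters in these windows, and RefSeq's gene model of Ccl17 also reaches further upstream than the start used here.

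Ccl3 and Ccl4 are the macrophage inflammatory proteins MIP-1 alpha and MIP-1 beta, which attract monocytes and T cells, and their genes are neighbours on chromosome 11. Both rose with IL-4, and Ccl4 was 4.24-fold lower in knockout than in wild-type M2 cells. The deposited intensities of the brighter Ccl4 probe (NM_013652) were 71, 48 and 46 in wild-type M0 and 449, 533 and 372 in wild-type M2 cells. In knockout cells they were 11, 14 and 44 in M0 and 105, 56 and 73 in M2. The detection p of these knockout M2 arrays was 0.00877, 0.0276 and 0.00376, so this group too lay near background. The wild-type M2 arrays stood apart from all other 9 arrays, while the knockout M0 and M2 arrays overlapped after normalization. The normalized mean of wild-type cells was 6.04 ± 0.0274 log2 (SD, n = 3) without and 8.62 ± 0.133 log2 with IL-4. That of knockout cells was 5.62 ± 0.524 log2 without and 6.54 ± 0.450 log2 with IL-4.

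Wild-type cells responded to IL-4 with a Ccl4 rise of 2.59 ± 0.257 log2 (SE, 6.02-fold, adjusted p = 7.998e-05). The rise in knockout cells was 0.92 ± 0.257 log2 (1.90-fold, adjusted p = 0.0248). The knockout call was lost without array a or b of knockout M0 (adjusted p = 0.0848 and 0.0906) or array a or c of knockout M2 (adjusted p = 0.0903 and 0.0753), with no filter on dim probes (adjusted p = 0.0522) and with array weights (adjusted p = 0.0655), and without the 3 arrays of lowest detected share it was 0.60 log2 (adjusted p = 0.228). In M2 cells the genotypes differed by -2.08 ± 0.257 log2 (adjusted p = 0.00190). This difference passed under all 22 other settings that gave it a value, with -2.32 to -1.53 log2. In M0 cells the difference of -0.42 ± 0.257 log2 missed the threshold (adjusted p = 0.681). The test of the difference between the IL-4 responses gave -1.67 ± 0.363 log2 and missed it as well (adjusted p = 0.218, with 0.0281 to 0.537 under the other settings), and it passed only with the background offset of 50. The second Ccl4 probe, annotated to the same accession, was never detected, with intensities of -34 to 1 on the 12 arrays, so the Ccl4 values rest on 1 probe.

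Ccl3 (NM_011337) moved the same way over a narrower range. Its intensities were 50, 31 and 59 without and 217, 229 and 138 with IL-4 on the wild-type arrays, against 46, 50 and 32 without and 74, 122 and 93 with it on the knockout arrays. M2 arrays lay above M0 arrays in each genotype, and after normalization all knockout M2 arrays lay below all wild-type M2 arrays. Ccl3 rose with the cytokine by 1.51 ± 0.208 log2 (2.85-fold, adjusted p = 0.000691) in wild-type cells. Knockout cells had a rise of 0.78 ± 0.208 log2 (1.72-fold, adjusted p = 0.0197). The knockout call was lost without array a or c of knockout M0 (adjusted p = 0.0511 and 0.0612) or array b or c of knockout M2 (adjusted p = 0.0690 and 0.0709). The genotype difference in M2 cells was -0.66 ± 0.208 log2 (adjusted p = 0.166) and that in M0 cells 0.07 ± 0.208 log2 (adjusted p = 0.952), neither past the threshold. Only 1 array of each M0 group detected Ccl3, so its M0 values lie near background.

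**Figure D2:**
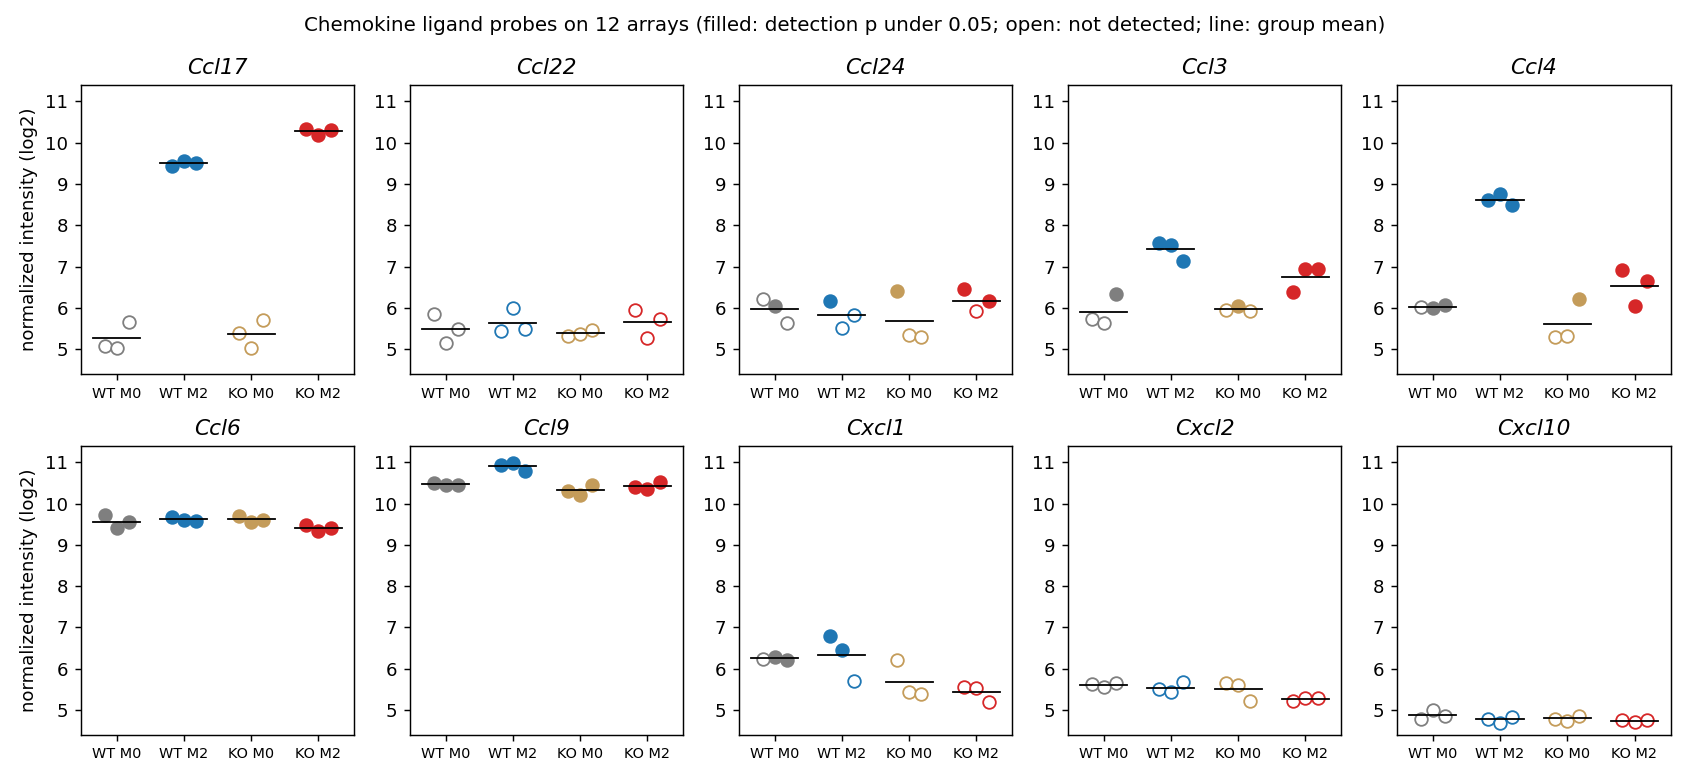
Normalized intensity (log2, vertical axis) of the brightest probe of each of the 10 chemokines in the 4 groups, with 1 point per array, filled where the probe was detected at p under 0.05 and open where not, and a line at the group mean. Ccl17 is at 9.50 and 10.28 log2 in wild-type and knockout M2 cells, Ccl4 at 8.62 and 6.54, and Ccl22, Cxcl2 and Cxcl10 have open points only.

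Ccl6 and Ccl9 are rodent chemokines that act on CCR1, and their genes lie side by side next to Ccl3. Ccl9 (NM_011338) was raised by IL-4 in wild-type cells and lower in knockout M2 cells. Its intensities were 1447, 1349 and 1300 without and 2154, 2398 and 1860 with IL-4 on the wild-type arrays, against 1081, 1186 and 1168 without and 1228, 1426 and 1430 with it on the knockout arrays. The wild-type M2 arrays lay above all others, whereas the knockout M0 and M2 arrays overlapped after normalization. IL-4 raised Ccl9 by 0.44 ± 0.102 log2 (1.36-fold, adjusted p = 0.0140) in wild-type cells. That call was lost without array b of wild-type M2 (adjusted p = 0.0586) and with median scaling (adjusted p = 0.209). In knockout cells the response was 0.10 ± 0.102 log2 (adjusted p = 0.566). The level in knockout M2 cells was lower by -0.48 ± 0.102 log2 (1.40-fold, adjusted p = 0.0395) than in wild-type M2 cells. This call was lost when any of 10 of the 12 arrays was left out, all but arrays b and c of knockout M0, with adjusted p of 0.0464 to 0.162 over the 12, and when the 3 arrays of lowest detected share were left out (adjusted p = 0.141).

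Ccl6 (NM_009139) was present at a steady level. Its intensities were 872, 652 and 670 without and 922, 941 and 794 with IL-4 on the wild-type arrays, against 720, 766 and 633 without and 643, 702 and 619 with it on the knockout arrays. Normalized means lay between 9.41 ± 0.0699 log2 (SD, n = 3) in knockout M2 and 9.62 ± 0.0721 log2 in knockout M0 cells, and both contrasts of knockout M2 cells gave groups that did not overlap, at -0.21 ± 0.105 log2 each, without passing the threshold (adjusted p = 0.202 against knockout M0 and 0.483 against wild-type M2).

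Ccl24, or eotaxin-2, is a CCR3 ligand that attracts eosinophils and a known product of IL-4-treated macrophages. Its probe (NM_019577) stayed near background, with intensities of 83, 50 and 27 without and 76, 36 and 44 with IL-4 on the wild-type arrays, against 69, 15 and 8 without and 77, 49 and 48 with it on the knockout arrays. The groups overlapped in all 4 pairs compared, and each group had at least 1 array that did not detect the probe. The IL-4 response was -0.13 ± 0.291 log2 (adjusted p = 0.831) in wild-type and 0.50 ± 0.291 log2 (adjusted p = 0.271) in knockout cells. The latter became 0.87 log2 (adjusted p = 0.0261) without array a of knockout M0, the only detected array of that group.

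Cxcl1 and Cxcl2, the mouse ligands of CXCR2 known as KC and MIP-2, recruit neutrophils, and Cxcl10 is an interferon-induced ligand of CXCR3 on activated T cells. Cxcl1 (NM_008176) was detected on 2 arrays each of wild-type M0 and M2 cells and on no knockout array. Its intensities were 85, 62 and 53 without and 122, 104 and 37 with IL-4 on the wild-type arrays, against 59, 20 and 12 without and 28, 29 and 4 with it on the knockout arrays. After normalization the knockout arrays lay below the wild-type arrays of the same state. In M0 cells the gap was narrow, with the highest knockout array at 6.206 log2 and the lowest wild-type array at 6.215 log2. The deposited intensities of these arrays, 59 and 53, stood in the opposite order. The modelled differences of -0.57 ± 0.270 log2 in M0 (adjusted p = 0.535) and -0.89 ± 0.270 log2 in M2 cells (adjusted p = 0.151) missed the threshold, the latter with an adjusted p of 0.0487 without array c of wild-type M2. As no knockout array detected the probe, these folds are bounds, at least 1.16-fold lower in M0 and in M2 cells. IL-4 responses were 0.07 ± 0.270 and -0.25 ± 0.270 log2 in wild-type and knockout cells (adjusted p = 0.908 and 0.589). Cxcl2 (NM_009140) had intensities of 4 to 42 and Cxcl10 (NM_021274) of -64 to -6 over the 12 arrays, not well above background anywhere.

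Read over the set, 4 of the 7 tested members passed for IL-4 in wild-type cells, Ccl17, Ccl3, Ccl4 and Ccl9, all higher, against 16.1% of all genes (8.44% higher and 7.62% lower). The groups did not overlap for these 4, against 34.1% of all genes. In knockout cells 3 of 7 passed, Ccl17, Ccl3 and Ccl4, all higher, against 21.6% of all genes (10.3% higher and 11.3% lower). Arrays with and without IL-4 were apart there for Ccl17, Ccl3 and Ccl6, 3 of 7 members, against 36.4% of all genes. Ccl17 was tested through its M2 arrays alone and so had to differ. The median response of the 7 was 0.44 log2 in wild-type and 0.50 log2 in knockout cells, beside 0.00302 and 0.00357 log2 over all genes. The knockout median was the value of Ccl24, which stayed near background and missed the threshold (adjusted p = 0.271). Ccl6 and Cxcl1, the latter undetected in both knockout groups, had negative knockout responses (-0.21 and -0.25 log2). Ccl24 had a negative response in wild-type cells (-0.13 log2). Between genotypes 0 of 7 passed in M0 cells by limma, where 0.686% of all genes did (0.381% higher and 0.305% lower, with 647 at an unadjusted p under 0.05). In M2 cells 2 of 7 passed, Ccl4 and Ccl9, both lower, where 2.04% of all genes did (0.67% higher and 1.37% lower). In M2 cells the genotypes did not overlap for 6 of the 7, Ccl17 being higher and Ccl3, Ccl4, Ccl6, Ccl9 and Cxcl1 lower in knockout cells, against 19.2% of all genes, and the median difference was -0.48 log2, beside -0.00940 log2 over all genes. In M0 cells this held for 1 of 7, Cxcl1, against 14.8% of all genes. Cxcl1 was tested through its wild-type arrays alone, so the filter favoured its lower knockout values in both states. For the difference of the IL-4 responses 0 of 7 passed by limma, where 0.0762% of all genes did (0.0152% higher and 0.0609% lower, with 434 at an unadjusted p under 0.05). The comparisons share arrays, the wild-type M2 arrays entering both the wild-type response and the M2 genotype difference, so a low or high wild-type M2 value moves both. Since the members were chosen with earlier results of these data known, their counts beside the shares of all genes are descriptions.

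**Figure D3:**
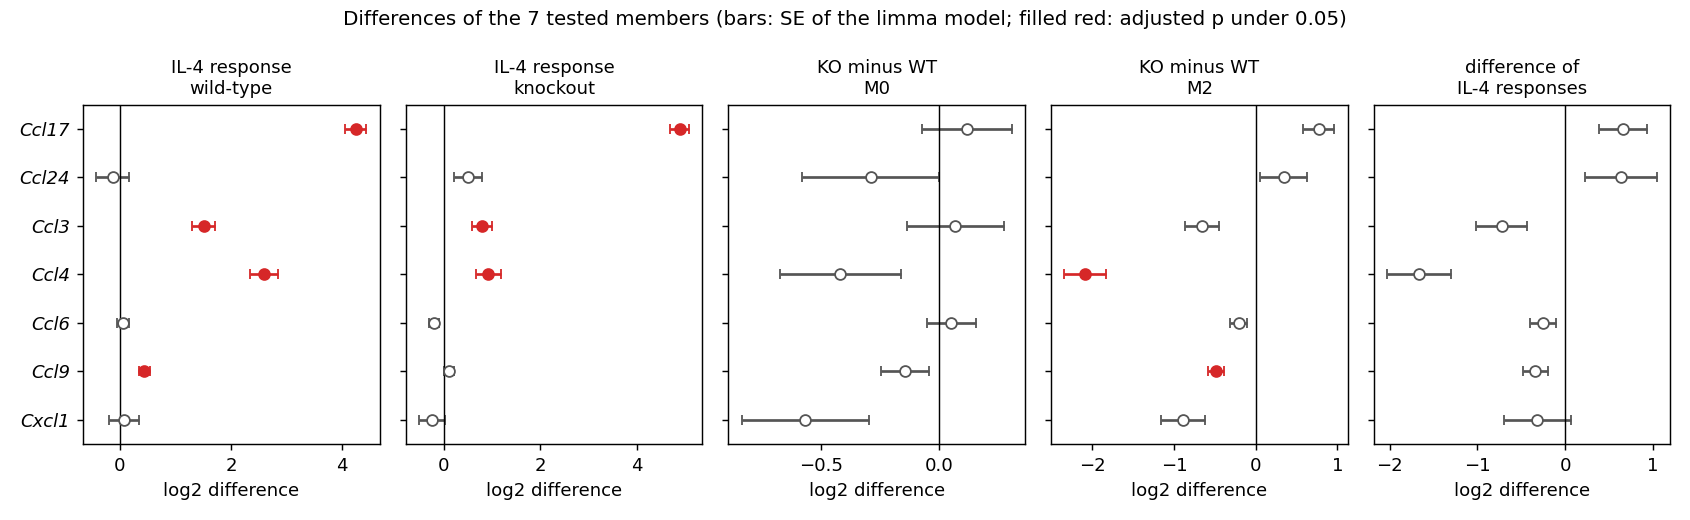
Log2 differences (horizontal axis) of the 7 tested chemokines in the 5 comparisons, with bars for the SE of the limma model and filled red points for an adjusted p under 0.05. In the M2 genotype panel Ccl4 lies at -2.08 and Ccl9 at -0.48 log2, both red, and Ccl17 at 0.77 log2, open.

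The order of the group means differed by gene. Ccl17 ran from both M0 groups, undetected and overlapping, to wild-type M2 and then knockout M2. Ccl4, Ccl3 and Ccl9 had their highest mean in wild-type M2 cells, followed by knockout M2 for Ccl3 and Ccl4 and by wild-type M0 for Ccl9, whose wild-type M0 and knockout M2 arrays overlapped. In the authors' processed table the same probes gave 746, 805 and 783 for Ccl17 in wild-type M2 and 1326, 1206 and 1308 in knockout M2 cells, and 447, 487 and 416 against 183, 127 and 163 for Ccl4, in replicates 1 to 3. The direction of both genotype differences was the same in both deposited tables. All 12 columns of the authors' table ranked the probes most like an array of their own group, at rank correlations of 0.99987 or more. Both tables thus hold the same signals, and the shared direction is no separate evidence.

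**Figure D4:**
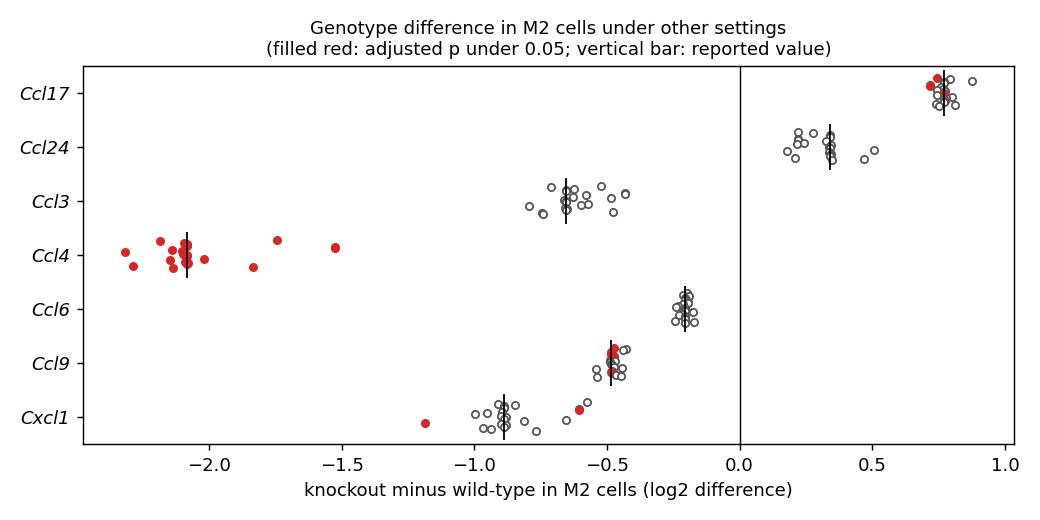
Knockout minus wild-type difference in M2 cells (log2, horizontal axis) of the 7 tested chemokines under each other setting, 1 point per setting, filled red for an adjusted p under 0.05, with a vertical bar at the reported value. All points of Ccl4 are red, between -2.32 and -1.53 log2, while those of Ccl9 are red in part and those of Ccl3, Ccl6 and Ccl24 are all open.

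Of 28 further chemokine ligands on the array, 4 were tested, Ccl25, Cxcl16, Pf4 and Cx3cl1. Cxcl16, a membrane-bound ligand of CXCR6, fell by 0.91 ± 0.170 log2 (adjusted p = 0.00414) in IL-4-treated wild-type cells and dropped by 1.62 ± 0.170 log2 (adjusted p = 6.526e-05) in treated knockout cells. It was lower in knockout than in wild-type M2 cells (-1.21 ± 0.170 log2, adjusted p = 0.00499), where 1 of 3 knockout arrays detected it. Pf4, the platelet chemokine, was at least 1.10-fold lower in knockout M2 than in knockout M0 cells (adjusted p = 0.0319). None of the 4 rose past the threshold in any comparison, and their median IL-4 response was 0.34 log2 in wild-type and -0.28 log2 in knockout cells.

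Of 9 receptors of these ligands on the array, 3 were tested. Cxcr2, the receptor of Cxcl1 and Cxcl2, was undetected in wild-type M0 cells and higher with IL-4 in wild-type (at least 1.37-fold, adjusted p = 0.0149) and in knockout cells (1.47 ± 0.272 log2, adjusted p = 0.00269), and higher in knockout than wild-type M2 cells (1.86 ± 0.272 log2, adjusted p = 0.00571) and M0 cells (at least 1.80-fold, adjusted p = 0.0297). Cxcr1 was at least 2.42-fold lower with IL-4 in wild-type and at least 1.19-fold lower in knockout cells (adjusted p = 0.000420 and 0.00608). It was detected on no M2 array, so it was tested through its M0 arrays alone and had to differ. Ccrl2 fell in knockout cells by 1.13 ± 0.184 log2 (adjusted p = 0.00121). The receptors Ccr1, Ccr3, Ccr4, Cxcr3, Ackr1 and Ackr2 were detected on no array.

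Among 11 tested NF-kB feedback and inflammatory genes 5 rose with IL-4 in each genotype, Nfkbie, Tnfaip3, Il1b, Ier3 and Icam1, where 8.44% and 10.3% of all genes rose in wild-type and knockout cells. The list medians were 0.44 log2 in wild-type and 0.51 log2 in knockout cells. Il1b, which encodes the cytokine interleukin-1 beta, was higher in knockout than in wild-type M0 cells (at least 1.23-fold, adjusted p = 0.0339). In M2 cells 1 of the 11 was lower without Lmp7, Nfkbie, an inhibitor of NF-kB (-0.77 ± 0.170 log2, adjusted p = 0.0459). Of 4 tested interferon response genes 0 passed for IL-4 in either genotype by limma, with medians of -0.26 and -0.36 log2, and Gbp2 was higher in knockout than in wild-type M0 cells (1.06 ± 0.208 log2, adjusted p = 0.04895). Of 15 tested M2 markers 13 passed as higher with IL-4 in wild-type and 14 in knockout cells. Among them Arg1, Retnla, Irf4, Cish, Ppargc1b and Rnase2a were detected on all 6 M2 arrays and on no M0 array, so they were tested through their M2 arrays alone and had to differ.

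The genes outside the set whose profile over the 12 arrays was most like that of a member were found by the root-mean-square difference of profiles centred on each gene's mean. Since they were chosen on these arrays, their likeness is no test of their own differences between groups. For Ccl17 these were Rnase2a, an eosinophil-associated ribonuclease (0.261 log2), and Cish, a feedback inhibitor of cytokine signalling (0.448 log2), set against Ccl17's own spread of 2.31 log2. For Ccl4, with a spread of 1.19 log2, they were Flrt2 (0.484) and the glypican Gpc1 (0.539), the latter detected on no knockout array. For Ccl3 they were Marcks (0.263) and Gpt2 (0.270), for Ccl9 the zinc transporter Slc39a6 (0.104) and Bcl2a1c (0.116), and for Cxcl1 the cystine transporter Slc7a11 (0.244) and the phosphatase Dusp1 (0.269). Ccl6, with a spread of 0.117 log2, was closest to Eif5 (0.0565) and Gars (0.0655), and Ccl24, with 0.378 log2, to Camk2n1 (0.174) and Rwdd3 (0.186).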

How the data were processed

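Total RNA was amplified, biotin-labelled and hybridised to Illumina BeadArrays, 3 in each of 4 groups. Per the file headers, the first deposited table holds an intensity and a detection p-value for each probe and array, not normalized. The deposited intensity values are integers between -72 and 12659, and those below 0 show that background was taken off before deposit. The second holds the authors' processed intensities on a linear scale, with a median of 86 in every column. The scanner software and a genome build are not given in the sources used here. Array number limits the precision, since depth has no meaning for these values.

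Background was modelled by normexp, with its parameters inferred from detection p-values and an offset of 16, in limma 3.58.1 (R 4.3.3), followed by quantile normalization and log2. Of 25697 probes 23978 had 1 gene symbol, 0 several and 1719 none. Named probes detected (p under 0.05) on at least 3 of 12 arrays were kept, 8626 in all, and the brightest probe stood for each of 6563 genes. A single limma model of 4 group means (8 residual degrees of freedom) gave 5 comparisons, two-sided, with Benjamini-Hochberg adjustment over all 6563 genes and a threshold of 0.05. Fitted over all kept probes, the same model gave no further member probe, since no member had 2 kept probes. Adjusted p-values are this model's, and errors given with log2 differences are standard errors. Where a probe was undetected on every array of a group, the fold is a bound. This model was also tested on simulated data in which some genes were given known changes. Lists are described by counts and medians. Figures used matplotlib 3.10.9 (Python 3.11.15).

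The authors' table alone carries replicate numbers. Deviations of same-numbered samples correlated at 0.357, 0.199 and 0.173 between knockout M0 and M2 and at 0.374, 0.242 and 0.117 between the M0 genotypes. Between wild-type M0 and M2 the correlations were 0.159, -0.0101 and 0.0807 and between the M2 genotypes 0.136, -0.0221 and 0.0607. Differently numbered samples were not compared, so whether the numbers pair samples was not tested.

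The named genes were the 10 members, list members past the threshold, the 2 genes nearest to each tested member by profile, and Psmb8. Members and lists were chosen with earlier results of these data known. Alternatives were the background offset, the scaling, the probe filter, the probe of a gene, the authors' values with and without a replicate block, array weights and leaving out each array. Leaving out the 3 arrays of lowest detected share and the detected share as a covariate were added after seeing the data.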

Additional observations from a re-analysis of the deposited data

How the results depend on the processing

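Of 780 values of single members under other settings, 746 kept their side of the threshold, 26 lost a call, 8 gained one and 0 turned the direction of a call. Median scaling gave 469, 750, 24, 47 and 1 genes past the threshold for the wild-type response, the knockout response, the M0 and M2 genotype differences and the difference of responses, where 1054, 1417, 45, 134 and 5 were reported, so that 60.8% were higher in the wild-type response (52.6% as reported), 39.7% in the knockout response (47.7%) and 23.4% in the M2 genotype difference (32.8%). The M2 genotype difference called 1 member, Ccl4, of the reported 2 under median scaling, under cyclic loess and without the 3 arrays of lowest detected share. Under the stricter filter (every array detected at p under 0.01) only Ccl6 and Ccl9 are tested, so the members called fell to 1, 0 and 1 for both responses and the M2 genotype difference by construction, where 212 genes passed. A background offset of 50 gave 8 genes and 1 member, Ccl4, for the difference of responses. There the mean over probes gave 8 and array weights 10 genes. Without the 3 arrays of lowest detected share 19, 38 and 0 genes passed for the M0 and M2 genotype differences and the difference of responses. Leaving out 1 array gave 1 to 3 members for the knockout response, 18 to 42 genes for the M0 and 45 to 113 genes and 1 to 3 members for the M2 genotype difference, and 0 to 8 genes for the difference of responses. The authors' values with the replicate block gave 212 genes and 4 members in the M2 genotype difference, adding Ccl17 and Cxcl1 to the calls. The replicate block changed no member's call elsewhere, and whether replicate numbers pair samples was not tested. The causes were not tested beyond the fewer genes or arrays that a setting holds. Signals near background limit Ccl24, Cxcl1, the M0 values of Ccl3, Ccl4 and Ccl17, and the knockout M2 values of Ccl4 and, on array a, of Ccl3.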
